A study of Mus musculus with 4 samples.

Results

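Chromatin accessibility around 6 genes of the pluripotency network (Pou5f1, Sox2, Nanog, Dppa3, Esrrb and Sall4) was examined in 5 genomic windows of the mm9 mouse genome. ATAC-seq marks open DNA by the insertion of adapters with the transposase Tn5, and it had been performed on 4 bulk libraries of J1 embryonic stem cells, a line of the 129SV strain grown without feeders on gelatin in 15% serum with 1000 units/mL leukemia inhibitory factor. The 2 DR+/+ libraries came from the population positive for MERVL, an endogenous retrovirus, and for Zscan4c, a gene of zygotic genome activation, and the 2 DR-/- libraries from the population negative for both. No other genotype or treatment is given, and the labels do not say how the populations were separated or whether replicates were separate cultures, so the spread between replicates may be technical. Peaks with their midpoint inside a window were taken, and overlapping peaks of the 4 lists were merged, which gave 42 regions of the 50231 merged regions of the genome. The windows were chr17:35600000-35680000 for Pou5f1, chr3:34500000-34700000 for Sox2 and sequence downstream of it, chr6:122550000-122720000 for Nanog and Dppa3, chr12:87650000-87900000 for Esrrb and chr2:168540000-168640000 for Sall4. Regions are numbered within each window in order of position.

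Pou5f1 encodes the POU-domain factor OCT4, which binds DNA together with the HMG-box factor SOX2 at composite elements of adjacent SOX and octamer sequence. With the homeodomain factor NANOG they occupy each other's enhancers and hold embryonic stem cells in the undifferentiated state. Esrrb encodes an orphan nuclear receptor of the naive state, Sall4 a zinc finger protein required for self-renewal, and Dppa3 a maternal protein that protects the early embryo's methylation and is a neighbour of Nanog. Cells positive for MERVL are likened to the 2-cell embryo and have been described as low in the proteins of the core factors, and the comparison of the populations bears on whether the chromatin of these genes is open in both. The lists hold no expression values, so the labelled populations could not be checked against RNA of MERVL or Zscan4c.

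The sequence to which these factors bind is shown for promoters of the 3 core genes, taken by gene symbol from RefSeq on GRCm38.p6. The peaks are on mm9, for which no genome was used, so the letters under the regions are not printed and no region was assigned to a promoter. Each run is the 250 bases before the first listed transcription start, 5′ to 3′ on the gene's strand, with 2 kinds of match in capitals: the octamer core ATGCAAA, joined to the SOX part where the composite (CATTGT, any 1 base, then ATGCAAA) is complete, and the nuclear receptor half-site AGGTCA. Both strands were searched, and the octamer core lies inside the composite.
Nanog: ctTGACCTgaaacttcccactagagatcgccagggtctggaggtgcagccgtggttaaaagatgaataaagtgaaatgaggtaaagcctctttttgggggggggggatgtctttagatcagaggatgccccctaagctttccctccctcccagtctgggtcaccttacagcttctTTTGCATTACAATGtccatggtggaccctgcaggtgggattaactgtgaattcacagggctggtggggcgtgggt
Sox2: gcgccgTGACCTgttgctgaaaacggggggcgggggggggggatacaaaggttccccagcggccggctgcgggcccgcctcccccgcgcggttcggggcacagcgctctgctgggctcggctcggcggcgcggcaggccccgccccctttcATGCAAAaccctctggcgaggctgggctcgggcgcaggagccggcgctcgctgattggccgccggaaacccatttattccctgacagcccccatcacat
Pou5f1: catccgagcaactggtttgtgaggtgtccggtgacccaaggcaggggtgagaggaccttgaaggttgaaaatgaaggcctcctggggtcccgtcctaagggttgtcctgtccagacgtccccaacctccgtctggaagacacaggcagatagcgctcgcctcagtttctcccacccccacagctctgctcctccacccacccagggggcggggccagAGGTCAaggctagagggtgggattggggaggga
The Nanog promoter held the whole composite on the opposite strand, its leftmost base at position -75 from the start. Among 32851 promoter windows of 300 bases (250 before to 50 after a start), 2 held the composite, and both belonged to Nanog, whose 2 listed starts overlap. The Sox2 promoter held the octamer core at position -99 without the SOX part, and the core was present in 4.63% of all windows. The Pou5f1 promoter held no octamer core in this window and 1 half-site at position -33, a motif present in 16.3% of all windows. The half-site was also present in the printed Sox2 and Nanog promoters, at positions -244 and -248. The other listed start of Pou5f1 held neither motif. A match describes letters and is not evidence of binding. Promoters of 4 of the 6 genes were in the table, and the 2 windows listed for Esrrb held none of these motifs.

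Most of the 42 regions were seen in part of the libraries, and 12 were called in all 4. These 12 (28.6%) compare with 24.7% of all merged regions. They lay in the windows of Sox2 (4 regions), Nanog and Dppa3 (3), Esrrb (3) and Pou5f1 (2), and the Sall4 window held 0. A further 17 regions (40.5%, against 44.1% of all merged regions) were called in a single library, 7 in 2 and 6 in 3 libraries. The members' shares by number of libraries were thus near those of the genome.

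**Figure D1:**
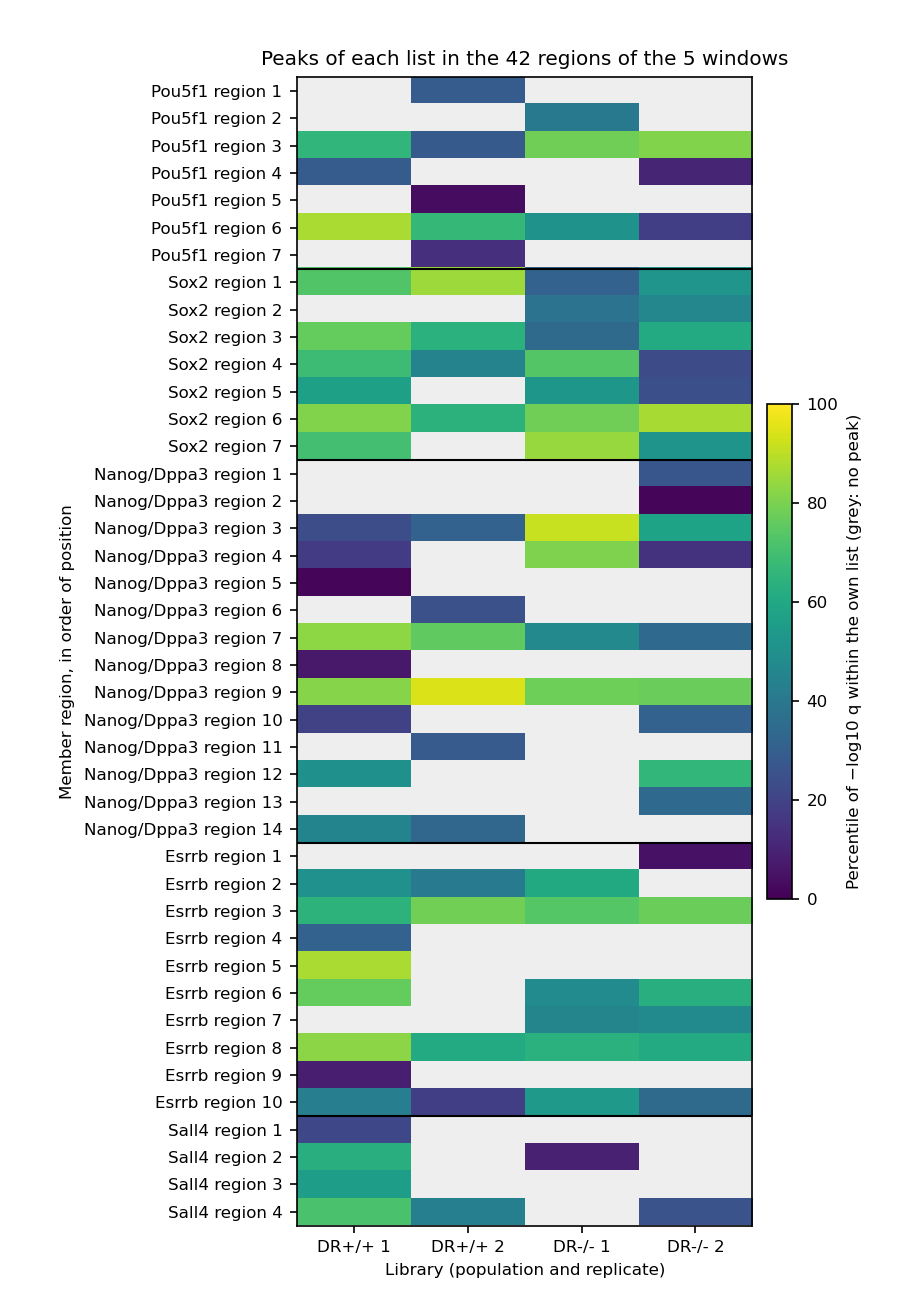
Each row is 1 of the 42 regions and each column a library; the colour is the percentile of the −log10 q-value of the region's strongest peak within its own list, and grey marks no peak. Rows coloured in all 4 columns are the 12 regions called in every list, none of them in the Sall4 window.

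DR+/+ replicate 1, the longest list with 40933 peaks, held peaks in 30 of the 42 regions. DR+/+ replicate 2 (26866 peaks) held 20, DR-/- replicate 1 (21630 peaks) 21 and DR-/- replicate 2 (24432 peaks) 26. The read totals are not stated, but fold enrichment and p-value together returned the whole number of reads piled up at each summit, and this was 10 to 33 reads over the peaks in the windows. Median pileups in the windows were 18, 16, 18 and 16 reads in DR+/+ replicates 1 and 2 and DR-/- replicates 1 and 2, beside 16, 16, 15 and 16 over the whole lists. The peaks are therefore shallow, and a region missing from a list may have fallen short of the threshold there.

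As a share of each list, the windows were represented less in both DR+/+ libraries. The 30 and 20 peaks of DR+/+ replicates 1 and 2 were 7.33 and 7.44 per 10000 peaks of their lists. The 22 and 27 peaks of DR-/- replicates 1 and 2 were 10.2 and 11.1 per 10000. The groups did not overlap, with means of 7.39 ± 0.0815 and 10.6 ± 0.622 (SD, n = 2 each) and a difference of -3.22 (exact two-sided permutation test, p = 0.333, the smallest p that 2 against 2 libraries allow). In numbers of peaks the groups overlapped, at 25 ± 7.07 and 24.5 ± 3.54 (SD, n = 2 each). When only the 21630 strongest peaks of a list were counted, the difference in share was -2.31. Taken singly, the windows of Sox2 and Esrrb had lower shares in both DR+/+ libraries. In the Pou5f1 and Sall4 windows the shares of the groups overlapped. For Nanog and Dppa3 the DR+/+ shares were lower by peaks. There DR-/- replicate 1 had 5 peaks in 4 regions, and by regions the groups overlapped. The share depends on the peaks elsewhere in a list as well as on those in the windows, and their parts were not tested. In bulk populations, fewer cells with a site open and a site less open in each cell also cannot be told apart.

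**Figure D2:**
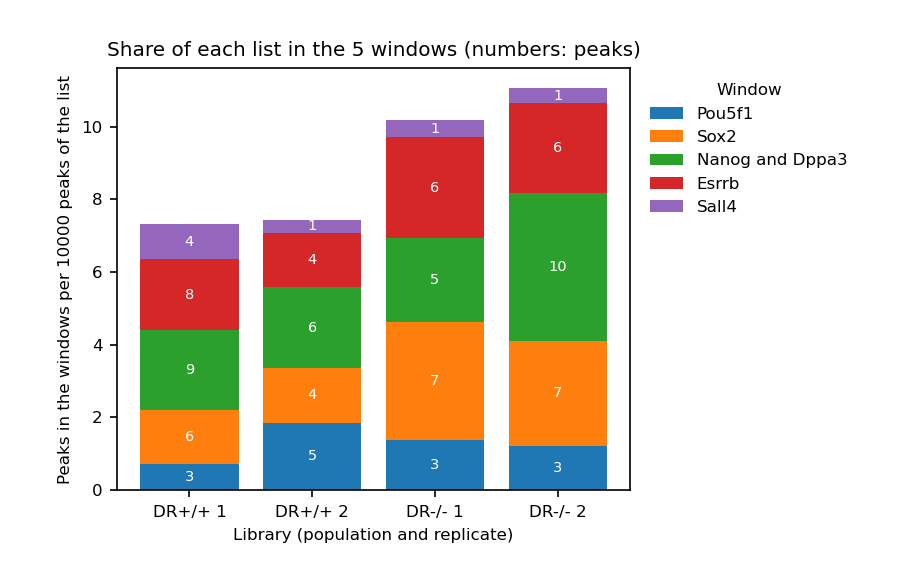
Bars give the peaks inside the 5 windows per 10000 peaks of each library's list, divided by window, with the number of peaks printed in each part. Both DR+/+ bars (7.33 and 7.44) are lower than both DR-/- bars (10.2 and 11.1).

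The Sox2 window held a peak of both DR-/- libraries in each of its 7 regions, whereas DR+/+ replicates 1 and 2 had peaks in 6 and 4. The 200 kb window thus had 3.5 regions per 100 kb, the lowest density of the 5. Its regions fell into 2 stretches, regions 1 to 3 between positions 34548743 and 34567693 and regions 4 to 7 between 34644139 and 34694728, with 76445 bp free of peaks between them in every list. Region 6 (chr3:34660126-34660518) was the strongest of the window by mean percentile over the lists (77.6). Its summit held 28 and 21 reads in DR+/+ replicates 1 and 2, against 26 and 30 in DR-/- replicates 1 and 2. Its width hardly varied, at 319, 352, 303 and 334 bp in the same order, and the outermost summits were 113 bp apart. Its summit pileup was ranked among the 12412 regions called in all 4 lists. The percentiles were 72.0 and 60.1 in the DR+/+ libraries and 88.4 and 89.9 in the DR-/- libraries. The groups did not overlap, and both DR+/+ ranks were lower. By fold enrichment among the same regions the percentiles were 21.7 and 22.2 against 28.9 and 46.5, again lower in DR+/+.

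Region 1 of the Sox2 window (chr3:34548743-34548973) ranked the other way. Its summit held 23 and 24 reads in DR+/+ replicates 1 and 2, against 16 and 19 in DR-/- replicates 1 and 2. The percentiles were 50.4 and 73.6 against 39.3 and 47.2, both DR+/+ ranks being higher. Region 3 (chr3:34567466-34567693) had 20 and 16 reads in the DR+/+ libraries and 14 and 19 in the DR-/- libraries, and its ranks overlapped. Region 4 (chr3:34644139-34644448), which ranked below the 3 strongest and was chosen after its values were seen, had 17 and 14 reads in both populations. Its peaks were 310 and 224 bp wide in DR+/+ replicates 1 and 2, against 181 and 105 bp in DR-/- replicates 1 and 2, without overlap. With each library centred on its median, 18.1% of all regions called in every list likewise had both DR+/+ widths above both DR-/- widths. The centred difference of region 4 was 0.67 ± 0.38 (SE) on the log2 scale and did not pass (limma, adjusted p = 0.647).

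Region 2 of the Sox2 window (chr3:34552909-34553046) had a peak in each DR-/- list and in no DR+/+ list. It had 16 and 18 reads at its summit in DR-/- replicates 1 and 2, with summits 3 bp apart at 34552973 and 34552970, and peaks of 114 bp in both. Regions 5 and 7 were missing from DR+/+ replicate 2 alone. Region 7 (chr3:34694546-34694728) was called with 16 reads in DR+/+ replicate 1 and 18 and 15 reads in the DR-/- libraries.

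In the Pou5f1 window 7 regions were found, of which 2 were called in every list and ranked in opposite directions. Region 3 (chr17:35640891-35641311), the strongest and, at 421 bp, the widest of this window, held 21 and 16 reads at its summit in DR+/+ replicates 1 and 2, against 22 and 26 in DR-/- replicates 1 and 2. Among regions called in all lists these were percentiles of 39.4 and 27.7 in DR+/+ and 76.2 and 80.5 in DR-/-, a difference of the means of -44.7 points. The fold enrichment over local background in the authors' lists was 4.88 and 3.98 in DR+/+ and 5.60 and 5.46 in DR-/-. Both DR+/+ libraries ranked lower without overlap, and the 4 summits lay within 67 bp. The DR+/+ widths were 376 and 192 bp, beside 188 and 253 bp in the DR-/- libraries, so the widths overlapped.

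Region 6 of the Pou5f1 window (chr17:35653737-35654141) held 27 and 21 reads in DR+/+ replicates 1 and 2, against 18 and 16 in DR-/- replicates 1 and 2. The percentiles were 68.3 and 60.1 against 54.1 and 27.6, both DR+/+ libraries being higher, by 23.3 points in the means. Its peaks measured 374, 378, 335 and 365 bp. The summits spanned 190 bp, at 35653885 and 35653926 in DR+/+ and at 35654075 and 35653979 in DR-/-. How often summits separate by population over all regions was not counted. RefSeq's GRCm38 table lists Tcf19 as the next coding gene after Pou5f1, and which gene this region belongs to was not analysed here. Of the other 5 regions, 3 were called in DR+/+ replicate 2 alone and 1 in DR-/- replicate 1 alone, with 13 to 15 reads. Region 4 (chr17:35646399-35646527) was found in DR+/+ replicate 1 and DR-/- replicate 2 with 16 reads in each.

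The window of Nanog and Dppa3 was the richest in regions, with 14, and held the strongest of the 12 regions called in every list. Region 9 (chr6:122652546-122653173), 628 bp as merged, had a mean percentile of 82.8 within the lists. Its highest summit held 27 and 32 reads in DR+/+ replicates 1 and 2, against 24 in each DR-/- library, beside medians of 23, 19, 17 and 19 reads over all regions called in every list, given for the DR+/+ and then the DR-/- libraries. Ranks overlapped between the populations, at the percentiles 68.3 and 91.7 in DR+/+ and 83.3 and 73.5 in DR-/-. Among the same regions called in every list, the percentiles by −log10 q-value were 48.2 and 88.3 in DR+/+ and 63.6 and 58.5 in DR-/-. By fold enrichment they were 28.0 and 78.6 against 38.1 and 41.2. Among these regions, a high standing in all 4 libraries thus holds for the pileup alone. Within the whole lists, the −log10 q-value stood at percentiles of 81.7 and 94.5 in DR+/+ and 77.8 and 77.1 in DR-/-.

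The shape of Nanog/Dppa3 region 9 differed between the lists of the populations. Each DR+/+ library had 1 unbroken peak there, of 628 and 544 bp. Each DR-/- library had 2 peaks, of 271 and 209 bp in replicate 1 and of 276 and 134 bp in replicate 2. The left peaks of DR-/- had 24 and 23 reads at summits 122652736 and 122652663, and the right peaks 18 and 24 reads at summits 122653033 and 122652997. Among all regions called in every list, 1.09% were likewise a single peak in both DR+/+ lists and split in both DR-/- lists, and region 9 was the only 1 of the 12 to be so. DR+/+ peaks were wider throughout the genome, with median widths over regions called in every list of 309 and 262 bp against 227 and 246 bp, and their part in this difference was not tested. Summed over the peaks, the widths of 628, 544, 480 and 410 bp differed by 0.13 on the log2 scale once each library was centred on its median (limma, adjusted p = 0.879). In the stronger 50% of each list, which leaves out the right peak of DR-/- replicate 1 (percentile 31.2), this value was 0.59. It was 0.27 without DR-/- replicate 1 and -0.06 without DR-/- replicate 2. For the highest peak alone, which leaves out 1 of the 2 DR-/- peaks, it was 1.32 (limma, adjusted p = 0.366).

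**Figure D3:**
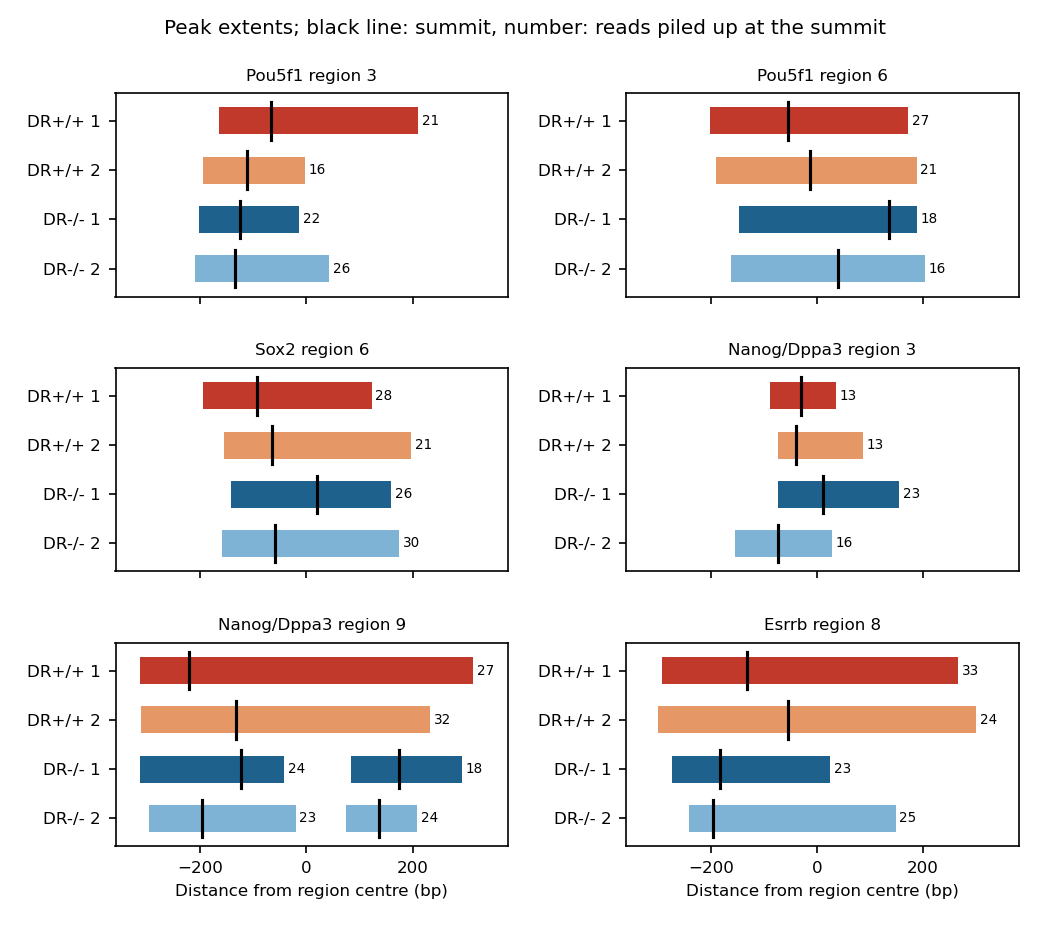
Bars show the extent of each peak in 6 regions, as distance from the region's centre in bp, for the 4 libraries; black lines mark summits and the numbers are reads piled up at the summit. Nanog/Dppa3 region 9 is a single peak in both DR+/+ lists and 2 peaks in both DR-/- lists, and the Esrrb region 8 peaks are wider in DR+/+ (559 and 600 bp) than in DR-/- (298 and 389 bp).

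Region 3 of the same window (chr6:122574555-122574864) was the member whose rank differed most. It held 13 reads in each DR+/+ library and 23 and 16 reads in DR-/- replicates 1 and 2. Its percentiles of 3.25 and 8.58 in DR+/+ were among the lowest of regions called in all lists, whereas those in DR-/- were 80.0 and 27.6, a difference of the means of -47.9 points. The 2 DR-/- libraries were far apart, so that DR-/- replicate 1 sets much of this difference, and DR-/- replicate 2 alone stood at 27.6 against a DR+/+ mean of 5.91. Its peaks were 123 and 159 bp wide in DR+/+ replicates 1 and 2, against 228 and 183 bp in DR-/- replicates 1 and 2, without overlap.

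Region 4, 8615 bp further along (chr6:122583480-122583764), was called with 12 reads in DR+/+ replicate 1, with 18 and 13 reads in the DR-/- libraries and not in DR+/+ replicate 2. Region 7 (chr6:122619490-122619776) had 21 and 19 reads in DR+/+ replicates 1 and 2, against 16 and 15 in DR-/- replicates 1 and 2. Its ranks of 39.4 and 48.6 lay above 39.3 and 20.9, though those of both replicate 1 libraries differ by less than a point. Its widths of 184, 239, 195 and 217 bp overlapped.

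The single member called in both DR+/+ libraries and no DR-/- library was Nanog/Dppa3 region 14 (chr6:122712659-122712871), the last of the window. It had 20 reads at its summit in each DR+/+ library and a fold enrichment of 4.03 and 3.64, and its peaks were 213 and 115 bp wide. This is 1 of 42 members (2.38%), where 9.08% of all merged regions had that pattern. With lists of equal length region 14 was no longer called in both DR+/+ lists, which left 0 of 32 members, and the share over all regions fell to 4.93%. RefSeq's table lists Slc2a3, a glucose transporter gene, as the coding gene after Nanog, and no region was assigned to either. Of the 9 regions of the window not yet described, 7 were called in a single library with 10 to 16 reads.

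The Esrrb window spanned 250 kb and held 10 regions, 3 of them in every list. Region 8 (chr12:87842546-87843145) was the widest, at 600 bp as merged. Its peaks measured 559 and 600 bp in DR+/+ replicates 1 and 2, against 298 and 389 bp in DR-/- replicates 1 and 2, without overlap. The summit pileup was nearly the same in rank, with 33, 24, 23 and 25 reads at percentiles of 85.3, 73.6, 80.0 and 77.2. Among the same regions the percentiles by −log10 q-value were 50.3, 35.2, 44.6 and 37.2. By fold enrichment they were 12.6, 8.41, 13.5 and 8.48, so the high standing holds for the pileup alone. The centred width difference was 0.50 ± 0.23 (SE) on the log2 scale, which did not pass (limma, adjusted p = 0.563) and ranged from 0.33 to 0.67 with 1 library left out.

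Region 3 of the Esrrb window (chr12:87774315-87774516) was the strongest there by mean percentile (73.6). It held 17 and 18 reads in DR+/+ replicates 1 and 2, against 19 and 20 in DR-/- replicates 1 and 2, at percentiles of 17.2 and 41.9 against 60.7 and 53.2. Both DR+/+ ranks were lower, though the pileups differed by at most 3 reads. Region 10 (chr12:87897897-87898134), at the far end of the window, had 13 and 12 reads in DR+/+ and 15 and 14 in DR-/-, again with both DR+/+ ranks lower.

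Region 7 of the Esrrb window (chr12:87819877-87820113) was the other member with a peak in each DR-/- list and none in DR+/+, with 17 and 19 reads and widths of 147 and 180 bp. Together with Sox2 region 2 it made 2 of 42 members (4.76%) of this class, which held 1.38% of all merged regions. Esrrb region 5 (chr12:87807233-87807437) showed how far replicates of a population could differ. It had 26 reads and a fold enrichment of 6.53 in DR+/+ replicate 1, at the 87th percentile of that list, and no peak in the other 3 libraries.

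The Sall4 window had 4 regions and was covered chiefly by DR+/+ replicate 1. That library held all 4 regions, whereas each of the other 3 libraries held 1. Region 4 (chr2:168616623-168616944), the widest, was called with 18 and 14 reads in DR+/+ replicates 1 and 2 and 14 reads in DR-/- replicate 2. Region 2 (chr2:168566818-168567077) was called in both replicate 1 libraries, with 18 reads in DR+/+ and 12 in DR-/-. The other 2 had 11 and 19 reads in DR+/+ replicate 1 alone.

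Across the 12 regions called in every list, summit ranks moved in both directions. Both DR+/+ libraries ranked below both DR-/- libraries in 5 regions (Pou5f1 region 3, Sox2 region 6, Nanog/Dppa3 region 3 and Esrrb regions 3 and 10), where 20.5% of all regions called in every list did so. They ranked above in 3 regions (Pou5f1 region 6, Sox2 region 1 and Nanog/Dppa3 region 7), against 21.5% of all. The median difference in rank, DR+/+ minus DR-/-, was -10.1 points over the 12 and -0.0624 over all 12412. Without regard to sign, the median difference in rank was 19.01 points over the 12 and 10.82 over all 12412. Replicates themselves were apart, also without regard to sign, by 11.6 points in DR+/+ and 12.0 in DR-/- in the median over all 12412 regions. Ranked by the deposited −log10 q-value instead, both counts were 4. Esrrb region 3 left the lower set and Sox2 region 3 joined the higher one. By that ranking, 19% of all regions called in every list were lower in both DR+/+ libraries and 19.4% were higher. Ranking by fold enrichment gave the same 2 sets of 4 members, against 18.8% of all regions lower and 18.3% higher. Ranks were compared without a test, because a pileup belongs to its own list.

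**Figure D4:**
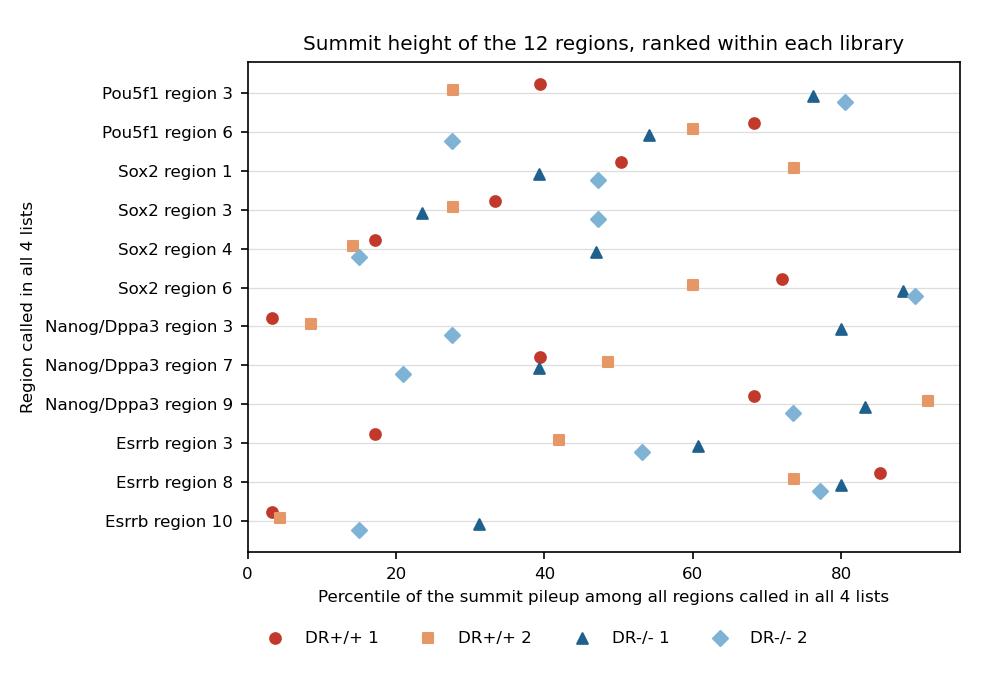
Points give, for each of the 12 regions called in every list, the percentile of the summit pileup among all 12412 such regions in each library. Both DR+/+ points lie left of both DR-/- points in 5 regions and right of them in 3.

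Widths were tested across all 12412 regions called in every list. Of these, 0.185% were wider in DR+/+ and 0.0% wider in DR-/- at an adjusted p under 0.05 (limma on log2 width centred on each library's median, Benjamini-Hochberg adjustment). Among the 12 members 0 passed, and 1, Nanog/Dppa3 region 3, had an unadjusted p under 0.05 (0.0459, limma), as did 9.54% of all. Its centred width differed by -0.82 ± 0.34 (SE) on the log2 scale, DR+/+ minus DR-/- (limma, adjusted p = 0.509), and the difference was -0.51 without DR+/+ replicate 1 and -1.11 without DR+/+ replicate 2. After centring, both DR+/+ widths lay above both DR-/- widths in Sox2 region 4 and Esrrb region 8 (18.1% of all) and below them in Pou5f1 region 6 and Nanog/Dppa3 region 3 (23.1% of all). For Pou5f1 region 6 this direction comes from the centring, since its uncentred peaks were wider in DR+/+.

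**Figure D5:**
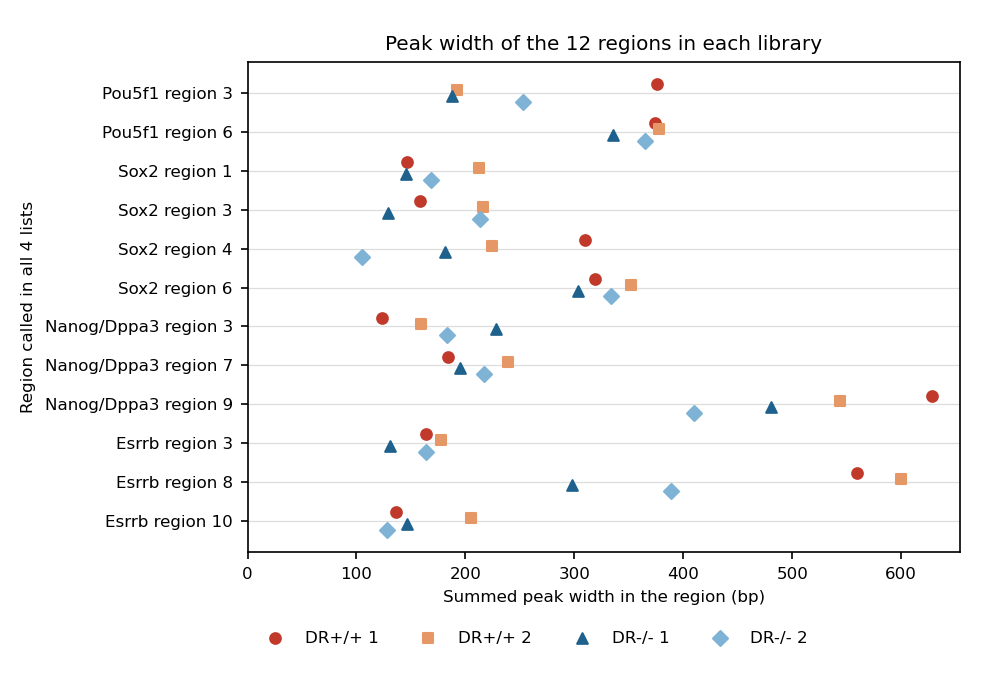
Points give the summed peak width in bp of the 12 regions called in every list, by library, before centring. Nanog/Dppa3 region 9 and Esrrb region 8 are the widest in the DR+/+ libraries, at 544 to 628 bp.

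Summit positions agreed to a similar degree in the members and elsewhere. The outermost of the 4 summits were 84 bp apart in the median over the 12 members (range 66 to 359) and 80 bp over all regions called in every list. The largest span, in Nanog/Dppa3 region 9, arose where the highest summit of DR-/- replicate 2 lay in its right peak.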

How the data were processed

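ATAC-seq peak lists of 4 libraries were analysed, grouped by their titles, with replicate numbers from the titles. The submitters' processing notes name the mm9 build, Bowtie2 2.3.0, SAMtools 0.1.19 and FastQC 0.10.1. Not given in the sources used here are the peak caller, any Tn5 shift of reads and the handling of duplicate and repeat-mapped reads; a caller's threshold decides which of these shallow peaks appear. The authors deposited 1 list per library, each peak with a score, a fold enrichment (ratio), a −log10 p-value, a −log10 q-value and a summit offset. Over the 4 lists the lowest −log10 q-value ranged from 1.31 to 1.32. These values were used to rank and describe peaks within a list. A summit pileup was recovered from fold enrichment, taken as (pileup + 1)/(background + 1), and a Poisson p-value, within 0.001 of the deposited −log10 p-value for 100% of peaks.

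Peaks overlapping by at least 1 bp were merged (Python 3.11.15, pandas 2.3.3, NumPy 2.4.6, SciPy 1.17.1). Widths were fitted with limma 3.58.1 in R 4.3.3, and the code was tested on simulated data. Named were the 3 strongest regions of each window called in every list, the widest region, those called in 1 population alone and any that passed the width fit. Outside this rule, Sox2 regions 4, 5 and 7, Pou5f1 region 4, Nanog/Dppa3 region 4, Esrrb region 5 and Sall4 region 2 were also described. Members and rules were chosen with earlier results of these data known. Alternatives were the stronger 50% of each list, lists of equal length, other window edges, merging gaps and presence rules, other width scalings, a replicate block, and each library left out. Rankings by −log10 q-value and by fold enrichment were added after seeing the data.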

Additional observations from a re-analysis of the deposited data

How the results depend on the processing

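In the stronger 50% of each list the number of regions in the windows was 22, and 4 were called in every list, 1 in DR+/+ alone and 1 in DR-/- alone, where the shares over all 25511 regions were 24.1%, 9.05% and 1.36%. With lists of equal length 0 of 32 were called in DR+/+ alone (4.93% of all regions) and 4 in DR-/- alone (4.17%), the latter being Sox2 region 2, Nanog/Dppa3 region 4 and Esrrb regions 7 and 10. Without 1 library at a time, a population then needing a peak in 1 list, those in DR+/+ alone numbered 2 to 8 and those in DR-/- alone 2 to 6. The counts for DR+/+ and DR-/- were 6 and 6 of 35 when DR+/+ replicate 1 was left out (22.8% and 6.56% of all regions) and 8 and 2 of 37 for DR+/+ replicate 2 (39.0% and 2.15%). They were 2 and 6 of 41 for DR-/- replicate 1 (12.7% and 7.50%) and 2 and 3 of 38 for DR-/- replicate 2 (15.0% and 6.10%). The cause was not tested beyond the change of definition. The lower share of the 5 windows together in DR+/+ lists kept its direction under all of its alternatives (-3.66 to -2.31 per 10000). The number of regions over the genome with a changed width was 23, and 15 with merging over gaps, 0 without centring, 4 with quantile normalization, 5 in the stronger 50%, 0 for the highest peak alone, 120 with the replicate block, and from 0 to 381 with 1 library left out. Without either DR+/+ library it was 0, and it was 381 and 354 without DR-/- replicates 1 and 2. No member passed in any of these fits. In the fits of all 4 libraries, 0 to 2 members had an unadjusted p under 0.05 (limma), beside 478 to 1548 regions of the genome. In the stronger 50% of each list these were 2 of the 4 members called in every list. Over the genome they were 478 regions, where 24.1% of 25511 were called in every list. For the highest peak alone they were 2 of 12 members, beside 1108 of 12412 regions. The replicate block changed no member's call, nothing in the labels pairs the libraries, and width deviations of same-numbered libraries from their group means had a correlation of -0.000338 across regions. By fold enrichment the median percentile of members, averaged over lists, was 39.5, against 49.0 by −log10 q-value. Summits of 10 to 33 reads limit every presence call.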
